A study of Homo sapiens with 18 samples.

Results

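Transcript levels in LNCaP cells exposed to dihydrotestosterone (DHT) together with 1 µM enzalutamide were set against levels in cells exposed to DHT alone. The comparison used 6 of the 18 arrays of the series, 3 per group, chosen by their labelled treatment, and all probe sets on them. The groups were DHT 100 nM plus enzalutamide 1 µM, and DHT 100 nM without the drug. Both groups received the same androgen, the same 5% hormone-depleted serum and the same 16 h of treatment, so they differed by the drug alone as far as the labels say. The other 4 groups were DHT with 10 µM enzalutamide, enzalutamide alone at 1 or 10 µM, and vehicle (DMSO), and they are used below where a level needs a baseline. LNCaP is 1 established prostate cancer line, first grown from a tumour-bearing lymph node. The line stands for 1 tumour background only.

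The androgen receptor is a hormone-activated transcription factor. DHT binds it, releases it from its chaperones and brings it to DNA, where it raises genes such as those of secreted kallikrein proteases and lowers others. Enzalutamide competes with DHT for the ligand-binding pocket and hinders nuclear entry and DNA binding of the receptor. In prostate cells its addition therefore addresses which androgen-driven transcripts a given dose of antagonist moves while the hormone is still present.

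Levels are log2 signals as deposited, and a change is the mean of the 3 arrays with DHT and enzalutamide minus the mean of the 3 with DHT, followed by ± its standard error in the limma fit. A gene was called at a Benjamini-Hochberg adjusted p under 0.05 over 12755 genes whose brightest probe set had a mean signal of at least 6.98, the median of all probe sets and called the brightness limit here. The size of a change is uncertain where a group lay below it. No label states that replicates came from separate cultures, so p-values measure a spread that may be technical, and 3 arrays per group limit the precision. Across probe sets, arrays correlated at 0.952 to 0.953 within DHT plus enzalutamide, at 0.938 to 0.954 within DHT and at 0.934 to 0.95 between these groups. The ratio of 3′ to 5′ signal of ACTB, read as a sign of RNA integrity, was 4.5 on DHT replicate 2, against 1.5 to 1.55 on the other 5 arrays.

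With DHT present, genes lowered by 1 µM enzalutamide included the kinase SGK1, the cytokine receptor LIFR, the GTPase RHOU and the co-chaperone FKBP5. Genes raised by the drug included BARD1, the partner of BRCA1, the membrane protein LRRN1 and the adaptor GRB10. KLK3, which encodes prostate-specific antigen, was not called. limma called 446 of 12755 genes (3.50%), of which 156 were higher (1.22%) and 290 lower (2.27%). At least 2-fold changes were called for 20 higher genes (0.157%) and 60 lower ones (0.470%). Centring each array on its median added 0.06 to every change and left 238 calls, 110 higher and 128 lower, a smaller excess of lowered genes. Without the 2 arrays of high ACTB ratio, DHT replicate 2 and enzalutamide 1 µM replicate 2, the calls were 253 higher and 267 lower. Counted by arrays that did not overlap, 11.9% of all genes were higher and 10.0% lower, so the larger direction depends on the measure. The count was 269 and 282 without replicate 2 or 3 of DHT plus enzalutamide, and 284 with only the 6 arrays in the fit.

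The list of androgen-induced genes held 47 names, and 44 were bright enough to be tested. Of these, 28 were called lower and 0 higher, with 35 members at an unadjusted p under 0.05, against 15.9% of all genes tested. Their median change was -0.78, against 0.02 over all genes tested. The arrays of both groups did not overlap for 34 members, all lower with the drug, against 10.0% of all genes tested. Set against the mean of the DHT arrays, the list's median was -0.57, -0.82 and -0.82 on the 3 arrays with enzalutamide, and each DHT array differed from the mean of the other two by 0.06, 0.07 and -0.09. The shift on each array with the drug was therefore larger than that between DHT arrays. The number of lowered members ran from 20 to 30 under the alternatives tried, with 20 after centring.

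**Figure D1:**
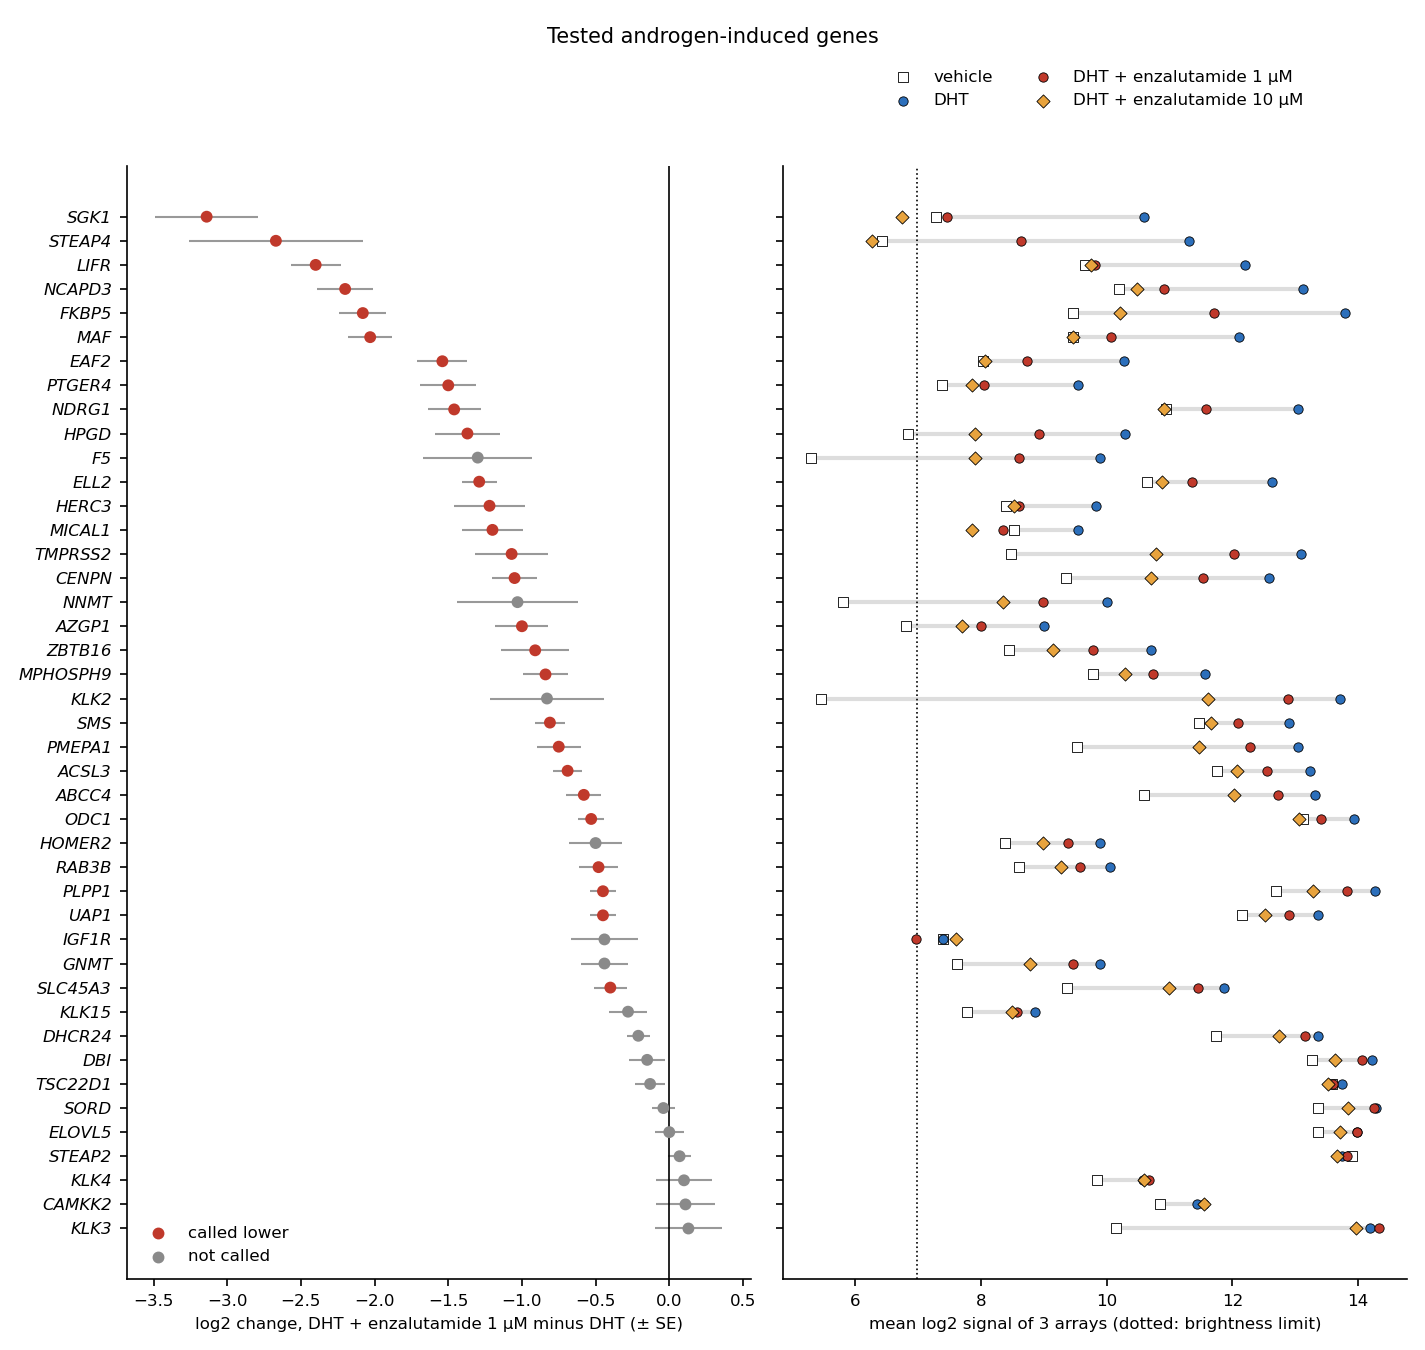
Tested androgen-induced genes, sorted by change. Left, log2 change of DHT plus enzalutamide 1 µM minus DHT with its standard error, in red where called lower. Right, mean log2 signal of 3 arrays with vehicle, with DHT and with DHT plus 1 or 10 µM enzalutamide, with the brightness limit of 6.98 dotted. SGK1 lies furthest left at -3.14, and KLK3 is at 0.13.

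SGK1, a serum- and glucocorticoid-regulated kinase, had 8.33, 7.28 and 6.78 with DHT and enzalutamide, against 10.85, 10.62 and 10.34 with DHT. Every array with the drug lay far below every DHT array, and the change was -3.14 ± 0.35 (limma, adjusted p = 1.61e-05). The lowest array with the drug, at 6.78, lay below the brightness limit, so the size of this fall is uncertain. LIFR, the receptor for leukaemia inhibitory factor, had 10.24, 9.6 and 9.58 with the drug, against 12.24, 12.28 and 12.08 with DHT, and 3 further bright probe sets of LIFR fell with it (-2.05, -2.05 and -1.52). STEAP4, a metalloreductase, stood at 9.39, 8.36 and 8.17 with the drug, against 11.51, 11.37 and 11.05. Its change of -2.67 ± 0.59 (adjusted p = 0.0118) had a wide error and was not called in 3 of 19 alternatives. In each of these 3 genes replicate 1 of DHT plus enzalutamide was the array nearest to DHT.

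FKBP5, a co-chaperone that holds steroid receptors in their inactive complex, had 12.28, 11.56 and 11.28 with the drug, against 13.83, 13.78 and 13.75 with DHT. The groups stood well apart, at a change of -2.08 ± 0.16 (adjusted p = 1.78e-07). NCAPD3, a subunit of condensin, had 11.52, 10.68 and 10.57 with the drug, against 13.51, 12.97 and 12.87 (-2.20 ± 0.19). MAF, a leucine zipper transcription factor, had 10.44, 9.94 and 9.83, against 12.1, 12.28 and 11.91 (-2.03 ± 0.15). These 3 fell about as far as LIFR, and none of their arrays overlapped. EAF2, which binds the elongation factor ELL, changed by -1.54 ± 0.17, PTGER4, a receptor for prostaglandin E2, by -1.50 ± 0.19, and ELL2, an elongation factor, by -1.29 ± 0.12. NDRG1, a stress-responsive cytoplasmic protein, changed by -1.46 ± 0.18, HPGD, which degrades prostaglandins, by -1.37 ± 0.22, HERC3 by -1.22 ± 0.24 and the actin-oxidizing enzyme MICAL1 by -1.20 ± 0.21. These 7 were called by limma with adjusted p-values of 0.00537 or less.

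A further set of androgen-induced genes changed by about 1 log2 unit or less. TMPRSS2, a membrane serine protease whose promoter drives the common prostate cancer fusion gene, had 12.33, 11.99 and 11.78 with the drug, against 13.19, 12.98 and 13.15 with DHT. It was lower on every array, by -1.07 ± 0.25 (limma, adjusted p = 0.0169), and lost the call in 5 of 19 alternatives. CENPN, a centromere protein, changed by -1.05, AZGP1, a secreted glycoprotein, by -1.0, and ZBTB16, a zinc finger repressor whose arrays overlapped, by -0.91, a call lost in 7 of 19 alternatives. MPHOSPH9 changed by -0.84, PMEPA1, which restrains TGF-beta signalling, by -0.75, ABCC4, an efflux pump, by -0.58, and PLPP1, a lipid phosphatase, and UAP1, an enzyme of hexosamine synthesis, by -0.45 each. RAB3B, a vesicle GTPase (-0.48), and SLC45A3, a prostate membrane transporter (-0.40), were also called, but lost the call in 10 and 13 of 19 alternatives. The other bright probe set of SLC45A3 gave 0.04.

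The 16 members that limma did not call included the classical androgen readouts. KLK3 had 14.48, 14.23 and 14.27 with the drug, against 14.18, 14.1 and 14.31 with DHT. Its arrays overlapped (0.13 ± 0.23, adjusted p = 0.83), and its other probe sets gave -0.09 and 0.10. KLK2, a related kallikrein protease, had 13.12, 12.79 and 12.75, against 13.79, 13.74 and 13.64. The KLK2 arrays did not overlap, but the change of -0.83 ± 0.39 missed the threshold (adjusted p = 0.304). F5, coagulation factor V (-1.30 ± 0.37, adjusted p = 0.0603), and NNMT, nicotinamide N-methyltransferase (-1.03 ± 0.41), likewise had separate arrays and large errors in the fit. That error pools the spread of all 6 groups. With the drug, with DHT and with vehicle, SDs were 0.20, 0.08 and 1.24 for KLK2. They were 0.06, 0.05 and 1.07 for F5, and 0.21, 0.33 and 1.13 for NNMT. The vehicle means of these genes, 5.45, 5.30 and 5.80, lay below the brightness limit. KLK4 (0.10 ± 0.19), CAMKK2, a kinase upstream of AMPK (0.11 ± 0.20), SORD, sorbitol dehydrogenase (-0.04 ± 0.08), ELOVL5, a fatty acid elongase (0.00 ± 0.10), and STEAP2 (0.07 ± 0.08) overlapped between groups. KLK3, SORD, ELOVL5 and STEAP2 were among the brightest genes, with DHT means of 13.75 to 14.29, while the brightest probe set of each array read 14.75 to 15.15. Whether signal saturation bore on KLK3 was not tested.

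**Figure D2:**
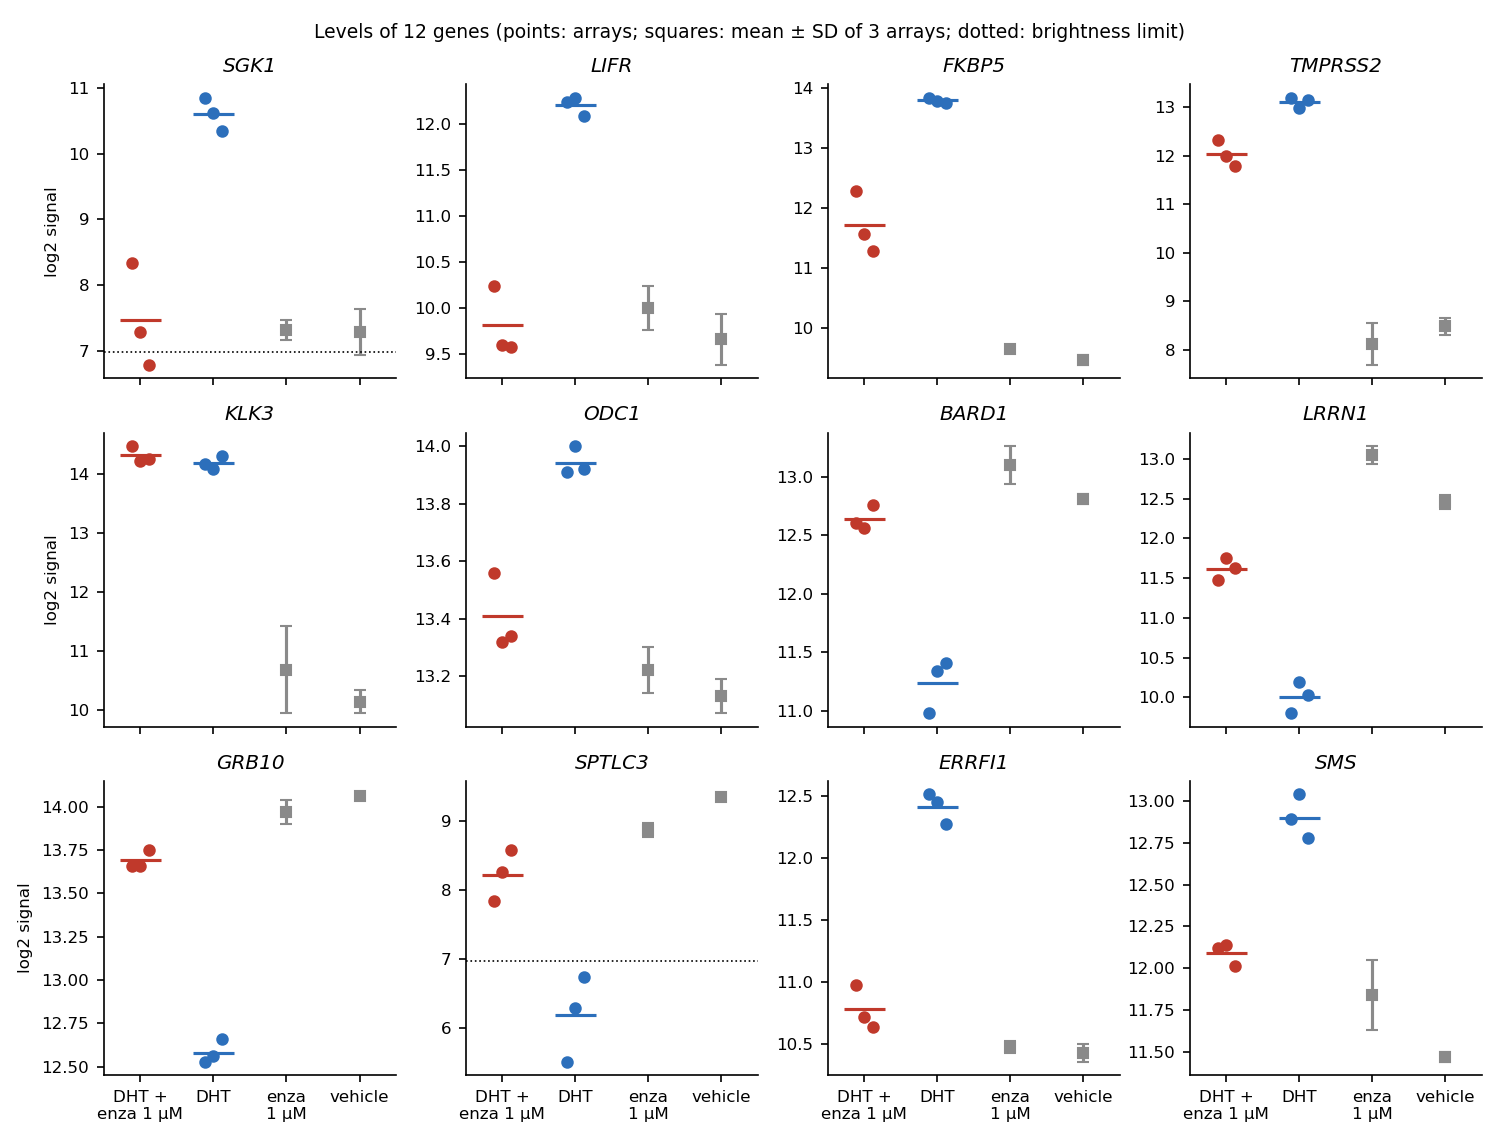
Log2 signal of 12 genes. Points are arrays of DHT plus enzalutamide 1 µM (red) and DHT (blue) with their mean as a line, and squares are mean ± SD of 3 arrays with enzalutamide 1 µM alone and vehicle. SGK1 and LIFR stand near the vehicle level with the drug, FKBP5 and TMPRSS2 between vehicle and DHT, and KLK3 at the DHT level.

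How far the drug moved these genes towards the hormone-free level differed among them. The comparison with vehicle shares its arrays with the one above, so both are only set side by side. With DHT and enzalutamide, 36 of the 44 genes were higher than with vehicle (limma) and 0 were lower, at a median difference of 0.86. Over all genes tested 10.1% were called in that comparison, 5.48% higher and 4.59% lower. DHT over vehicle had 41 members higher and 0 lower at a median of 2.13, with 16.1% of all genes called, 7.80% higher and 8.32% lower. SGK1 exceeded vehicle by 0.18 (limma, adjusted p = 0.815), LIFR by 0.15 (adjusted p = 0.661), HERC3 by 0.21 and MICAL1 by -0.18, none of them called. The vehicle mean of SGK1, 7.28, lay just above the brightness limit. ODC1 differed from vehicle by 0.28 (adjusted p = 0.0512). FKBP5 still exceeded vehicle by 2.24, ABCC4 by 2.13, CENPN by 2.17, PMEPA1 by 2.76, TMPRSS2 by 3.55 and KLK3 by 4.18, all called. KLK2 exceeded it by 7.44, from a vehicle mean of 5.45 below the brightness limit, so that size is uncertain.

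A dose of 10 µM of the drug beside DHT separated some of these genes again. Between 10 µM and 1 µM with DHT, limma called 9 of all genes tested (0.0706%), 8 lower (0.0627%) and 1 higher (0.00784%). 5 of the 8 are androgen-induced list members, and the list's median step was -0.44. Against DHT, 10 µM lowered 36 members and raised 0 at a median of -1.28, with 8.42% of all genes called, 3.94% higher and 4.48% lower. Both comparisons share arrays with that of 1 µM. FKBP5 stood at 10.22 with 10 µM, against 11.71 with 1 µM (-1.49 ± 0.16, adjusted p = 0.00031). CENPN stepped by -0.83 ± 0.15, PMEPA1 by -0.82 ± 0.15, ABCC4 by -0.70 ± 0.12 and PLPP1 by -0.53 ± 0.09. The other lowered genes were TNFAIP8, an apoptosis regulator (-0.91), MALT1, a paracaspase (-0.58), and CREB3L4, a membrane-bound transcription factor (-0.56), and GNG7, a G protein subunit, was higher (1.03). TNFAIP8, MALT1 and GNG7 are named because they complete this short set, a choice made after their values were seen. SGK1 and LIFR had means of 6.75 and 9.75 with 10 µM, against 7.46 and 9.81 with 1 µM, and neither step was called. The SGK1 mean of 6.75 lay below the brightness limit, so the size of its step is uncertain.

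The androgen receptor binds a palindrome of hexamers. Promoter sequences are shown for the 3 named genes that hold its half-site, KLK3, IL6R and UGT2B15, which were picked for that match, and for FKBP5, a called gene without it. KLK3 was not called, FKBP5 and IL6R fell and UGT2B15, a steroid-conjugating enzyme described below, was higher. The 250 bases upstream of each RefSeq gene start (GRCh38.p14) were searched for the half-site AGAACA and for TGTTCT, the same hexamer on the other strand. It occurred in 12.4% of all 27305 promoters, in 7.5% of those of 9683 genes tested, in 14 of 230 lowered genes (6.09%) in 7 of 116 raised ones (6.03%) and in 2 of 35 androgen-induced ones (5.71%). Of the 67 named genes with a promoter in the table, 3 held it. Capitals mark the half-site, which lies 170 bases upstream of the start in KLK3 (chr19:50854665-50854914, plus strand), 140 in IL6R (chr1:154405093-154405342, plus strand) and 172 in UGT2B15 (chr4:68670653-68670902, minus strand). FKBP5 (chr6:35728584-35728833, minus strand) has no match in this window, and each sequence is written 5′ to 3′ along its gene. A match is a string of letters and not a measured binding site.
KLK3: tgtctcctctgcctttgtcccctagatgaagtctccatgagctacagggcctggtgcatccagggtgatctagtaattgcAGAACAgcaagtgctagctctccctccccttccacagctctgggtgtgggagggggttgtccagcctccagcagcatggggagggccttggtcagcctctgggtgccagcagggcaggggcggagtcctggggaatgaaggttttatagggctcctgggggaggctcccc
FKBP5: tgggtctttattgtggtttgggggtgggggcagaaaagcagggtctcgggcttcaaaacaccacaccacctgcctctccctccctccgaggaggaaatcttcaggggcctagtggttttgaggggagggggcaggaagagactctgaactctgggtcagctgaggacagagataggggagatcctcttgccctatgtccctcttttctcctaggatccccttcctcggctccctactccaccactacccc
IL6R: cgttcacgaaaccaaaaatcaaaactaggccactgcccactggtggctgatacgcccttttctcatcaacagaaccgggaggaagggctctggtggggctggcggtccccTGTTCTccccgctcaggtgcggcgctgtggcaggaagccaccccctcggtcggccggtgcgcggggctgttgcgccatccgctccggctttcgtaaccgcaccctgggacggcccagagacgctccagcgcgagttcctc
UGT2B15: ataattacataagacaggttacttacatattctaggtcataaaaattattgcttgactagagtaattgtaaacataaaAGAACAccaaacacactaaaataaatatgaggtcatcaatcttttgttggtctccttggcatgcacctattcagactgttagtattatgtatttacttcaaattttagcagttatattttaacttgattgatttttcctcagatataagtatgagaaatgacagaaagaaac

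Androgen-repressed genes were described from a list of 22, of which 16 were tested. limma called 7 higher and 1 lower, against 1.22% and 2.27% of all genes tested, and the median change was 0.40. DHT over vehicle had only 10 of the 16 lower and 1 higher, against 8.32% and 7.80% of all genes tested, at a median of -0.92. ACKR3, a chemokine scavenger receptor, had 13.68, 13.54 and 13.57 with the drug, against 12.51, 12.93 and 12.9 with DHT. The arrays were apart, and ACKR3 rose by 0.82 ± 0.11 (adjusted p = 0.000127). CAMK2N1, an inhibitor of CaM kinase II, rose by 0.77 ± 0.13 and by 1.40 and 0.94 on its other probe sets. UGT2B15 had 13.06, 13.03 and 13.16, against 12.36, 12.68 and 12.59 (0.54 ± 0.09), and UGT2B17 changed by 0.56 ± 0.14, whereas UGT2B28 had 10.21, 9.79 and 10.34, against 11.05, 10.82 and 10.75 (-0.76 ± 0.19, adjusted p = 0.0333). These 3 enzymes attach glucuronic acid to steroids and are near-identical paralogs, so cross-hybridisation makes the signal of each uncertain. BCHE, butyrylcholinesterase (0.59 ± 0.15), ACP3, prostatic acid phosphatase (0.41 ± 0.11), and FOLH1, prostate-specific membrane antigen (0.34 ± 0.09), were also called higher, and BCHE and ACP3 lost the call in 9 of 19 alternatives each. UGT2B17 and UGT2B28 lost it in 7 of 19 each. With each array centred, 3 of the 16 were called higher and 0 lower.

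With DHT and the drug, 7 of the 16 androgen-repressed genes were called below vehicle and 0 above, against 4.59% and 5.48% of all genes tested. UGT2B15 and UGT2B17 lay below vehicle by -0.95 and -1.04, CAMK2N1 by -0.69 and ACP3 by -0.85, all called. UGT2B28 was also called below vehicle (-0.81, limma, adjusted p = 0.011). With DHT alone, UGT2B28 differed from vehicle by -0.05 (limma, adjusted p = 0.908). ACKR3 (-0.28) and BCHE (-0.46) were below vehicle without a call.

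Many of the 15 largest called rises, SPTLC3 first, were on genes dim with DHT. LRRN1 and BARD1, described below, were above the brightness limit. AMIGO2, also described below, had a DHT mean of 7.07, just above the limit, and a DHT replicate 1 of 6.69 below it. The size of its rise is therefore uncertain too. SPTLC3, a subunit of serine palmitoyltransferase, had 7.84, 8.26 and 8.57 with the drug, against 5.52, 6.3 and 6.74 with DHT. Its DHT arrays all lay below the brightness limit, so the rise of 2.04 ± 0.24 (limma, adjusted p = 1.95e-05) is uncertain in size, and it was the single one of 22 tested sphingolipid enzymes called. EGLN3, an oxygen-sensing prolyl hydroxylase, rose by 1.50 ± 0.29, DGKH, a diacylglycerol kinase, by 1.24 ± 0.21, ZNF703, a transcriptional repressor, by 1.21 ± 0.17, and VSTM2L by 1.28 ± 0.28, each from a DHT mean below the limit. The other bright probe set of EGLN3 gave 0.40. ASMTL-AS1 (1.87 ± 0.43), C16orf89 (1.28 ± 0.33), TNS2, a focal adhesion phosphatase (1.22 ± 0.31), and LOC375133 (1.25 ± 0.33) were likewise dim with DHT, and each lost the call in at least 5 of 19 alternatives. LOC145837 (1.15 ± 0.17) was above the limit in both groups.

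2 further large falls were outside the lists. OTULINL had 8.82, 8.28 and 7.97 with the drug, against 10.34, 10.47 and 10.07 with DHT (-1.94 ± 0.23), and MGC18216 changed by -1.51 ± 0.17. The groups were apart for both.

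Brighter raised genes included BARD1, which forms a ubiquitin ligase with BRCA1. It had 12.6, 12.56 and 12.76 with the drug, against 10.98, 11.34 and 11.41 with DHT. The arrays were fully apart, the change was 1.39 ± 0.10 (adjusted p = 1.54e-07), and the mean of 12.64 differed from that with vehicle by -0.18 (adjusted p = 0.335). Among 40 tested genes of double-strand break and crosslink repair, BARD1 and the checkpoint kinase CHEK2 (0.63 ± 0.15) were higher and the recombination helicase RAD54B (-0.91 ± 0.13) was lower. CHEK2 lost the call in 4 of 19 alternatives. The list's median change was -0.01, and of all genes tested 1.22% were called higher and 2.27% lower.

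Neuroendocrine and synaptic genes had 14 tested members, with 4 called higher, 0 lower and 7 at an unadjusted p under 0.05, and a median change of 0.37. The shares of all genes tested were 1.22%, 2.27% and 15.9%. LRRN1, a leucine-rich repeat protein of neurons, had 11.48, 11.75 and 11.63 with the drug, against 9.8, 10.19 and 10.03 with DHT (1.61 ± 0.11, adjusted p = 4.26e-08). AMIGO2, an adhesion molecule, had 8.56, 8.91 and 8.94, against 6.69, 7.37 and 7.17 (1.73 ± 0.18). STXBP5L, which binds syntaxin, had 8.98, 9.24 and 9.48, against 7.92, 8.22 and 8.29 (1.09 ± 0.13). Each was separated between groups and remained below vehicle, by -0.84, -1.19 and -1.62. The other bright probe set of STXBP5L gave 0.22. JAKMIP1 rose by 1.52 ± 0.37 from a DHT mean below the limit, and lost the call in 3 of 19 alternatives.

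**Figure D3:**
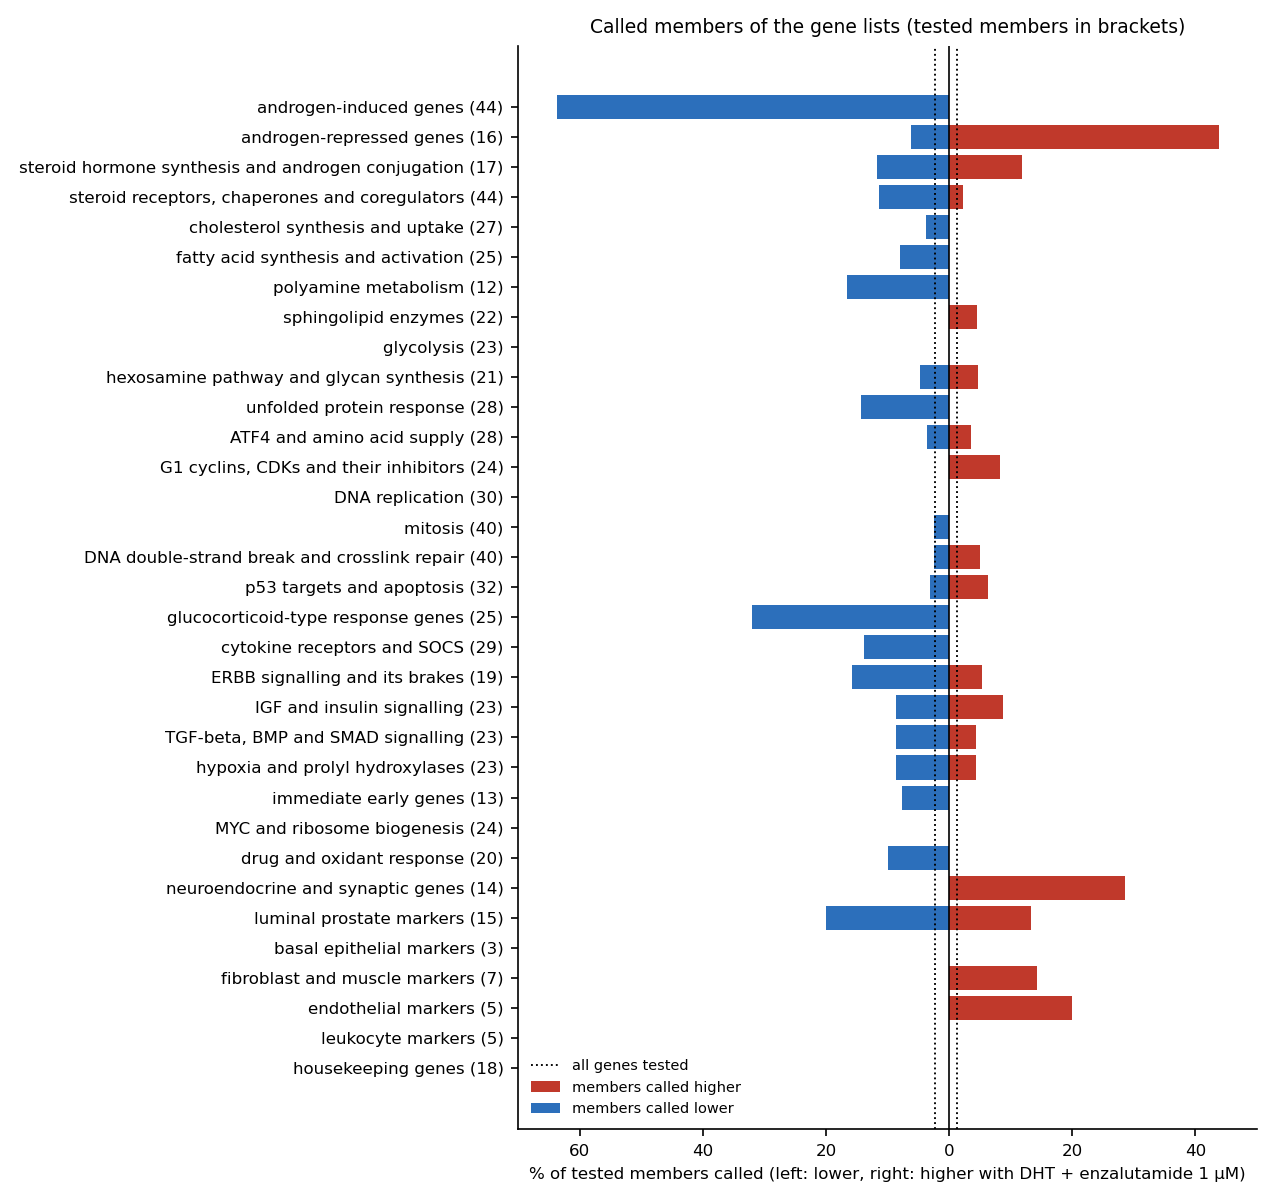
Share of the tested members of the gene lists that limma called higher (right) or lower (left) with DHT plus enzalutamide 1 µM than with DHT. Dotted lines mark the share of all genes tested, 1.22% higher and 2.27% lower. The longest bars are androgen-induced genes on the left and androgen-repressed genes on the right.

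Genes of the glucocorticoid-type response, many of which the androgen receptor also regulates, had 8 of 25 tested members lower and 0 higher, with 11 at an unadjusted p under 0.05 and a median change of -0.23. Of all genes tested 2.27% were lower, 1.22% higher and 15.9% under that unadjusted p. FKBP5, SGK1, LIFR and ZBTB16 of these are also on the androgen-induced list. ERRFI1, a feedback inhibitor of the epidermal growth factor receptor, had 10.98, 10.72 and 10.64 with the drug, against 12.51, 12.45 and 12.27 with DHT. It stood apart on every array (-1.63 ± 0.09, adjusted p = 1.03e-08). CRISPLD2, a secreted protein, changed by -1.44 ± 0.16, NFKBIA, the inhibitor of NF-kappa-B, by -0.86 ± 0.20, and CEBPD, a leucine zipper factor, by -0.49 ± 0.10. Of 13 immediate early genes only KLF4, a zinc finger factor, was called (-1.44 ± 0.20).

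Growth factor and cytokine receptor pathways had called members among receptors, adaptors and inhibitors. Of 19 tested ERBB genes 3 were lower and 1 higher, against 2.27% and 1.22% of all genes tested. ERRFI1, LRIG1, a transmembrane inhibitor of ERBB receptors (-1.19 ± 0.16), and SPRED1, an inhibitor of RAS signalling (-0.73 ± 0.16), were lower, and the adaptor GRB2 was higher (0.51 ± 0.12). SPRED1 and GRB2 lost the call in 6 of 19 alternatives each, and the other bright probe set of GRB2 gave 0.08. In 23 IGF and insulin genes 2 were higher and 2 lower. GRB10, an adaptor that dampens insulin and IGF receptor signalling, had 13.66, 13.66 and 13.75 with the drug, against 12.53, 12.56 and 12.66 with DHT (1.11 ± 0.08, adjusted p = 1.65e-07). IRS2, a docking protein of the insulin receptor, had 9.55, 9.41 and 9.23, against 10.4, 11.16 and 10.74 (-1.37 ± 0.15). These 2 genes showed no overlap, in opposite directions. PIK3R1, the regulatory subunit of PI3 kinase, was higher (0.50 ± 0.12) and FOXO1, a transcription factor inhibited by insulin, lower (-0.65 ± 0.18), though FOXO1 lost the call in 12 of 19 alternatives. PIK3R1 lost it in 4 of 19, and its other bright probe sets gave 0.78, 1.32 and -0.14.

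Cytokine receptors and SOCS genes had 4 of 29 tested members lower and 0 higher, against 2.27% and 1.22% of all genes tested. Beside LIFR these were SOCS2, an inhibitor of cytokine signalling (10.71, 10.38 and 10.42 with the drug, against 11.6, 11.7 and 11.58 with DHT), the growth hormone receptor GHR (-0.59 ± 0.12) and the interleukin-6 receptor IL6R (-0.45 ± 0.12). IL6R lost the call in 9 of 19 alternatives, and its other bright probe set gave 0.30. In TGF-beta and BMP signalling, the receptor BMPR1A (-0.79 ± 0.13) was lower besides PMEPA1, and the pseudoreceptor BAMBI was higher (0.68 ± 0.11). The median change of this list was -0.05.

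RHOU, an atypical GTPase related to CDC42, had 11.27, 10.59 and 10.99 with the drug, against 13.23, 13.29 and 13.07 with DHT. It was far lower on every array (-2.25 ± 0.14, adjusted p = 1.03e-08). CDC42EP3, an effector of CDC42 (-1.17 ± 0.13), RHOBTB3 (-0.75 ± 0.12) and ARHGAP5, a GTPase-activating protein (-0.51 ± 0.13), were lower and ARHGAP29, another GTPase-activating protein, was higher (0.47 ± 0.07). ARHGAP5 lost the call in 10 of 19 alternatives. DOCK4, an exchange factor for RAC, had 9.78, 9.7 and 9.66, against 11.13, 11.04 and 10.64 (-1.22 ± 0.12).

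Among metabolic genes, the polyamine enzymes ODC1, ornithine decarboxylase, and SMS, spermine synthase, were lower out of 12 tested. Of all genes tested 2.27% were lower. SMS had 12.12, 12.14 and 12.01 with the drug, against 12.89, 13.04 and 12.78 with DHT (-0.81 ± 0.10), and ODC1 had 13.56, 13.32 and 13.34, against 13.91, 14 and 13.92 (-0.53 ± 0.09). Both are also on the androgen-induced list. ELOVL7, an elongase (-0.96 ± 0.12), and ACSL3, an acyl-CoA synthetase (-0.69 ± 0.10), were lower out of 25 fatty acid genes. The oxidoreductase HSD17B11 was lower (-1.13 ± 0.20), as was CYP2U1, a fatty acid hydroxylase (-1.60 ± 0.16). TIPARP, a mono-ADP-ribosyltransferase, changed by -1.15 ± 0.13. MAN1A1, a Golgi mannosidase, was higher (0.70 ± 0.18) from a DHT mean below the limit, and lost the call in 7 of 19 alternatives. Of 23 glycolysis genes limma called 0, with 2 at an unadjusted p under 0.05, against 15.9% of all genes tested. ALDOC, an aldolase, came nearest (0.46 ± 0.18, limma, adjusted p = 0.187).

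Unfolded protein response genes had 4 of 28 tested members lower and 0 higher, with a median change of -0.02. Of all genes tested 2.27% were lower and 1.22% higher. DNAJB9, a chaperone of the endoplasmic reticulum, had 11.53, 11.27 and 11.24 with the drug, against 12.04, 12.3 and 12.05 with DHT (-0.78 ± 0.10). SEC24D, a COPII coat protein (-0.82 ± 0.11), ERN1, the sensor IRE1 alpha (-0.79 ± 0.17), and CREB3L4 (-0.43 ± 0.07) were the others. In 28 ATF4 and amino acid genes, PSAT1, an enzyme of serine synthesis, was higher (0.46 ± 0.10) and VLDLR lower (-0.67 ± 0.15), and in 23 hypoxia genes ANKRD37 (-0.85 ± 0.11) and NDRG1 were lower and EGLN3, described above, was higher. PSAT1 and VLDLR lost the call in 4 and 5 of 19 alternatives.

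Cell cycle lists showed few calls, and of all genes tested 1.22% were called higher and 2.27% lower. CCNE2, a G1 cyclin, had 9.27, 9.39 and 9.4 with the drug, against 8.54, 8.19 and 8.34 with DHT (1.00 ± 0.12, limma, adjusted p = 3.56e-05), and CCNG2, an atypical cyclin of resting cells, was higher by 0.49 ± 0.11, out of 24 G1 genes. CCNG2 lost the call in 4 of 19 alternatives, and its other bright probe sets gave -0.21, 0.39, 1.13 and 0.39. Of 30 DNA replication genes limma called 0, with 4 at an unadjusted p under 0.05, against 15.9% of all genes tested. The primase subunit PRIM1 came nearest (0.34 ± 0.12, limma, adjusted p = 0.165). Of 40 mitosis genes only NCAPD3 was called. Outside these lists ATAD2, a chromatin ATPase, was lower (8.62, 8.97 and 9.01, against 10.6, 10.69 and 9.75). In p53 and apoptosis genes the death receptor FAS (0.95 ± 0.17) and TP53INP1 (0.72 ± 0.08) were higher, and the death receptor TNFRSF10B was lower (-0.77 ± 0.15), out of 32. Other bright probe sets of FAS gave 0.07, 0.66 and 0.73. MYC was not called (0.43 ± 0.12, adjusted p = 0.0537), and of 24 MYC and ribosome biogenesis genes 0 were called, with 4 at an unadjusted p under 0.05. Of 18 housekeeping genes limma called 0, with 3 at an unadjusted p under 0.05, and SDHA came nearest (0.34 ± 0.11, adjusted p = 0.13).

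Of steroid receptor, chaperone and coregulator genes, the lowered ones included, besides FKBP5, GRHL2, a grainyhead factor of epithelia (-0.85 ± 0.17), SPDEF, an ETS factor of prostate epithelium (-0.75 ± 0.12), and PIAS1, a SUMO ligase (-0.57 ± 0.13). GATA2, which opens androgen-regulated enhancers, had 11.73, 11.8 and 11.74 with the drug, against 11.23, 11.35 and 11.3 with DHT (0.46 ± 0.09, adjusted p = 0.00278). It was separated between groups, and lost the call after centring.

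Markers of luminal prostate cells were bright in both groups, with summed linear signals of 125774 to 142660 with the drug and 139479 to 142601 with DHT over 15 markers. Of these, KRT19 alone lay below the brightness limit in both groups. Of other cell types, 3 of 6 basal, 5 of 10 fibroblast and muscle, 4 of 6 endothelial and 4 of 6 leukocyte markers were dim. These lay below the limit in both groups. Among the rest, COL1A1 had means of 9.99 with the drug and 9.96 with DHT, and MYH11 of 9.13 and 9.39. VWF, von Willebrand factor, had 8.59, 8.61 and 8.66 with the drug, against 6.42, 7.63 and 5.94 with DHT (1.96 ± 0.53, adjusted p = 0.0495), and lost the call in 11 of 19 alternatives. The endothelial sum was 763 to 811 with the drug and 366 to 532 with DHT over 6 markers that include VWF, and these ranges did not overlap. CDH5, KDR, TEK and TIE1 lay below the limit in both groups, while PECAM1, another defining endothelial marker, had 8.2, 8.35 and 8.24 with the drug, against 7.87, 8.09 and 7.94 with DHT. The PECAM1 arrays did not overlap, as held for 21.9% of all genes tested, and the gene was not called (0.30 ± 0.19, limma, adjusted p = 0.482). FN1, fibronectin, was higher by 0.76 ± 0.13, the 1 call among 7 tested fibroblast and muscle genes. The sum of 10 fibroblast and muscle markers, which does not include FN1, was 2402 to 2773 with the drug and 2568 to 2740 with DHT, and these ranges overlapped. Of 3 basal and 5 leukocyte markers tested, limma called 0 and 0 had an unadjusted p under 0.05, with DST (0.34 ± 0.17) and CSF1R (-0.48 ± 0.24) coming nearest. The part of other cells in the VWF and FN1 values was not tested.

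To see whether the drug acted in the same way without the hormone, its effect beside DHT was set against its effect alone (enzalutamide 1 µM minus vehicle). The difference between these effects was called for 744 of 12755 genes (5.83%), 459 positive (3.60%) and 285 negative (2.23%). It was negative for 20 of the 44 androgen-induced genes and positive for 0. Of the 16 androgen-repressed genes it was positive for 2, ACKR3 and CAMK2N1, and negative for 0. LIFR changed by -2.40 with DHT and by 0.34 without it, RHOU by -2.25 and -0.01, ERRFI1 by -1.63 and 0.05, FKBP5 by -2.08 and 0.18, DOCK4 by -1.22 and 0.41, and GRB10 by 1.11 and -0.09. These 6 genes were picked for the smallest adjusted p of this difference, 2.8e-05 or less by limma. NDRG1 changed by -1.46 with DHT and -0.58 without it, a difference of -0.88 (adjusted p = 0.0494). The differences of TMPRSS2 (-0.70, adjusted p = 0.233), STEAP4 (-1.76, adjusted p = 0.205), SLC45A3 (-0.11) and KLK2 (-1.83, adjusted p = 0.0564) were not called. Some raised genes were also called higher with the drug alone. BCHE changed by 0.59 with DHT and 0.66 without it, ACP3 by 0.41 and 0.49, and AMIGO2 by 1.73 and 0.94. Their differences of -0.07, -0.08 and 0.78 were not called. The 744 calls depended on single arrays, and were 309 without vehicle replicate 1 and 1772 without enzalutamide 1 µM replicate 3.

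The drug effects with and without DHT come from different arrays, so their calls can be compared. limma called 446 genes with DHT and 872 without it (6.84% of all genes, 2.24% higher and 4.59% lower). Both sets held 53 genes, which is 11.9% of the first and 6.08% of the second, and 32 of them moved the same way and 21 the opposite way. Among androgen-induced genes, 2 were higher and 2 lower with the drug alone, at a median of 0.01. Among the 16 androgen-repressed genes, 3 were higher and 0 lower, at a median of 0.13.

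**Figure D4:**
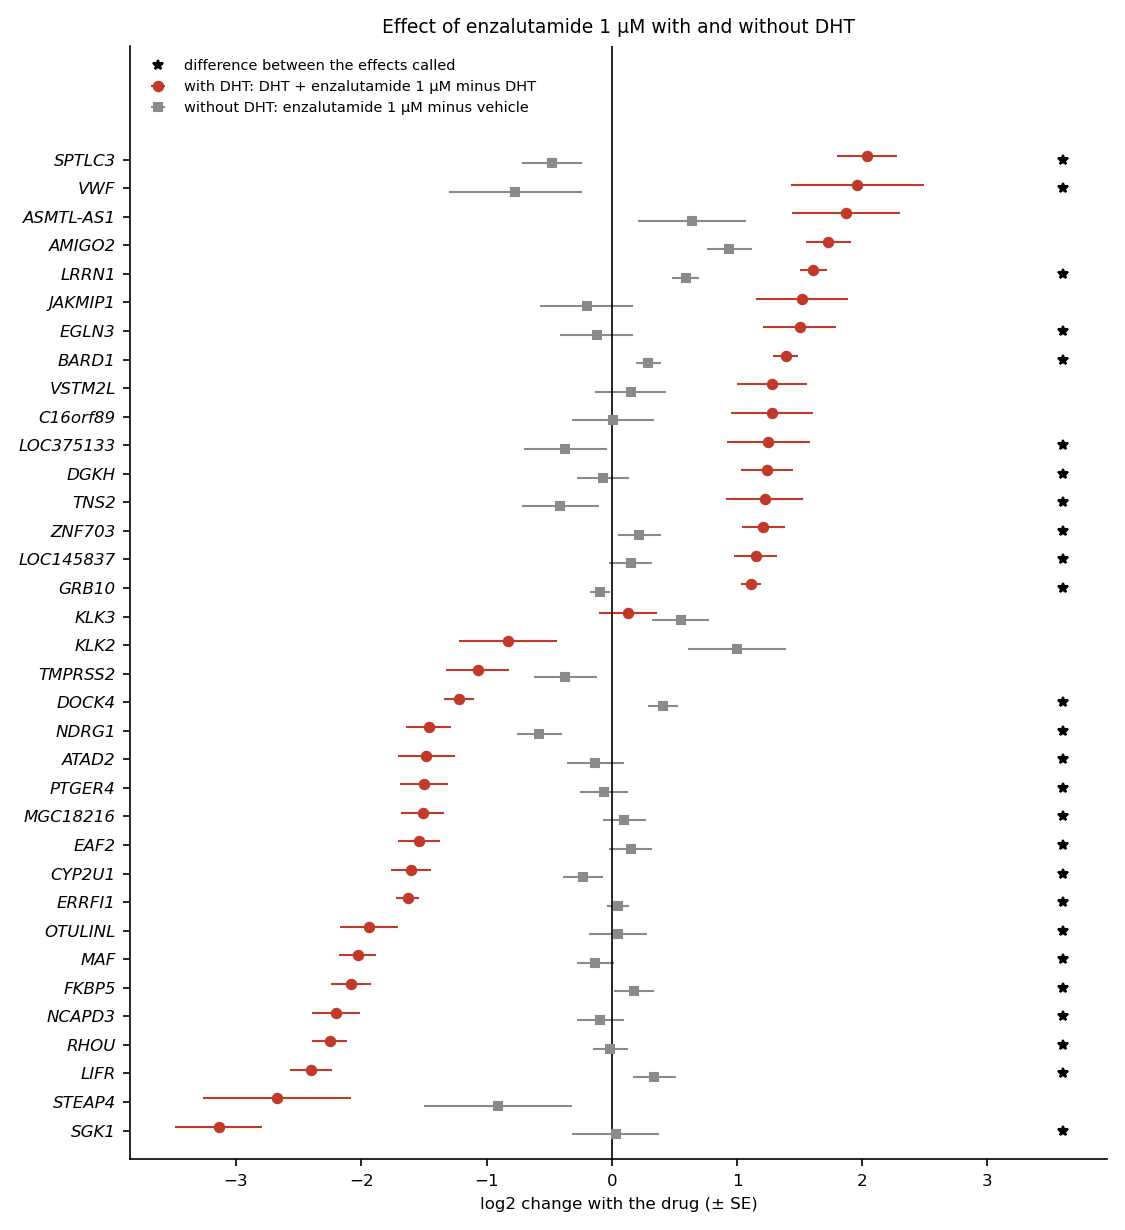
Log2 change with enzalutamide 1 µM for genes named by size or in advance, with DHT (red) and without it (grey), each ± its standard error. Stars mark genes whose 2 changes differed in the limma fit, and SGK1, at -3.14 with DHT, lies at the bottom.

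Over all 54613 probe sets without a brightness limit, limma called 597 (1.09%), 212 higher (0.388%) and 385 lower (0.705%). Among them 75 carry no gene symbol here, 29 higher and 46 lower. In 85 genes at least 2 probe sets were called, and all 85 agreed in direction. Probe sets 228559_at (11.45, 11.08 and 10.99 with the drug, against 12.92, 12.85 and 12.68 with DHT) and 235419_at (-2.02 ± 0.29) were lower, and 1563494_at (3.03 ± 0.52) and 238094_at (2.21 ± 0.49) were higher from DHT arrays below the limit. On 1563494_at the DHT arrays read 4.6, 2.14 and 5.11, and the arrays with the drug 7.02, 7.06 and 6.86. On 238094_at the DHT arrays read 5.66, 3.34 and 6.15. Replicate 2, of high ACTB ratio, was the lowest DHT array on both, and both sizes are uncertain. The authors' deposited table carries a mark for these groups on 718 probe sets, 272 higher and 446 lower with the drug once its direction, DHT minus DHT plus enzalutamide, is turned. Of the marked sets in the authors' deposited table, 409 (57%) were among the 597 limma calls (68.5% of these), and 0 had the opposite direction. Both come from the same arrays, so the shared direction was largely settled beforehand.

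The 3 arrays with DHT and enzalutamide were not equally far from DHT. Among the 290 lowered genes replicate 1 was the highest of the 3 in 159, and among the 156 raised genes it was the lowest in 88. Over all 12755 genes it was the highest in 4216 and the lowest in 4542. Among DHT arrays, replicate 2, with the ACTB ratio of 4.5, was the highest in 170 of the lowered genes and replicate 3 the lowest in 180. Replicate 2 was also the most often highest DHT array among the 156 raised genes, in 69. Over all genes tested its median difference from the mean of the other DHT arrays was 0.08, against -0.03 and -0.04 for replicates 1 and 3. The order of the DHT arrays was not counted over all genes. Without DHT replicate 2 and replicate 2 of enzalutamide 1 µM, the other array of high ACTB ratio, 520 genes were called, 253 higher and 267 lower, and 28 androgen-induced genes were lower. Over probe sets the same setting gave 343 higher and 526 lower, against 212 and 385 with all arrays. Without DHT replicate 2 alone, 166 genes were higher and 202 lower. The part of RNA integrity in the other calls was not tested.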

How the data were processed

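Total RNA of LNCaP cells was hybridised to single-colour oligonucleotide arrays. MAS5 is named, with no version, in the submitters' processing notes. Further upstream work is not given in the sources. The array values were deposited on a log2 scale, and each array's trimmed mean signal was 499.9 to 500.0, so arrays had been scaled before deposit. Per the file headers, the authors deposited p-values for each pair of groups and a mark (other columns), used for counts and direction only.

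Groups came from the labels. Of 54675 probe sets, 62 controls were left out. Symbols were updated through RefSeq (GRCh38.p14), 43564 probe sets had 1 symbol, 573 several and 10476 none. limma 3.58.1 in R 4.3.3 fitted 6 group means to 18 arrays (12 residual degrees of freedom), moderated by eBayes with a trend on signal. The fit was tested on simulated data. Tables and plots used Python 3.11.15, numpy 2.4.6, pandas 2.3.3 and matplotlib 3.10.9. Alternatives were centring, quantile normalization, other brightness limits, a mean over probe sets, other fits, array weights and leaving out arrays.

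Members, lists and the naming rule were chosen with earlier results of these data known. Named were the 15 largest rises and falls among called genes without overlap, up to 4 called members per list or else the nearest one, 6 genes in advance (KLK3, KLK2, TMPRSS2 and FKBP5 among them), 6 with the smallest adjusted p between drug effects, and 4 unnamed probe sets. Some genes and lists are not reported here. Other called list members named beyond the rule were chosen after their values were seen.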

Additional observations from a re-analysis of the deposited data

Results flagged for a closer look

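The effect of enzalutamide 1 µM differed between cells with and without DHT for 744 genes (limma, adjusted p under 0.05), 5.83% of all genes tested. A set of 47 genes held androgen-induced genes, with RHOU, ERRFI1, GRB10 and DOCK4 added. The added genes were picked for a small adjusted p in this same contrast, so the choice settled that they differed. Of the 47, 23 differed, 22 with a more negative effect beside DHT. The other was GRB10 (1.20), an added gene, with a more positive one. ACKR3 (0.70) and CAMK2N1 (0.68), androgen-repressed genes outside this set, also differed. The most negative values were SGK1 (-3.17), LIFR (-2.74), FKBP5 (-2.26), RHOU (-2.23), NCAPD3 (-2.11) and F5 (-2.05), which lay below the brightness limit with vehicle. MAF (-1.90), HPGD (-1.71), EAF2 (-1.69), ERRFI1 (-1.68), DOCK4 (-1.64), PTGER4 (-1.44), ELL2 (-1.26), SMS (-1.19) and CENPN (-1.0) followed. The remaining differences were AZGP1 (-0.97), NDRG1 (-0.88), ACSL3 (-0.85), PLPP1 (-0.85), UAP1 (-0.72), ABCC4 (-0.70) and ODC1 (-0.62). AZGP1 and HPGD also lay below the limit with vehicle, so the sizes of their differences are uncertain. SGK1 read 6.78 on replicate 3 of DHT plus enzalutamide, below the limit, so the size of its difference is uncertain too.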

How the results depend on the processing

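For DHT plus enzalutamide 1 µM against DHT, 446 genes were called by limma. The count was 238 with each array centred on its median and 284 with only the groups compared in the fit, and leaving out one replicate at a time gave 269 to 421. The 597 called probe sets became 347 after centring and 338 to 579 without one replicate. The 744 differences between drug effects with and without DHT became 403 after centring, 316 with only the groups compared, 471 without both arrays whose ACTB ratio was high, 1566 under array weights, and 309 to 1772 without one replicate. The causes were not tested, except that fewer arrays were used in the fits that left some out.

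Replicates with the same number in the compared groups had deviations correlated at 0.06, 0.03 and -0.09, so the numbers were not taken as pairs. With the replicate block, limma called 478 genes, 604 probe sets and 934 differences between drug effects. The other alternatives kept the 446 within 1.5 times, and every gene shared with the main calls kept its direction (226 after centring, 427 with the replicate block, 362 when both arrays of raised ACTB ratio were left out).

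Of 119 genes examined by name, 96 were called, and 56 of these were called under every one of the 19 alternatives in which they were tested. None reversed. Precision rests on 3 arrays per group, and signals below 6.98 leave the size of a change open to background. Cross-hybridisation of near-identical genes, saturation of the brightest probe sets and the mix of cells were not measured.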
